A study of Mus musculus with 48 samples.

Results

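Imprinted genes were followed here through the DNA that a methyl-CpG-binding domain captured from the intestine of GermFree and ConvR mice. A list of 36 imprinted genes at 15 loci was taken, and the members are the captured regions that overlap a listed gene or lie within 5 kb of it in the mouse build mm10. They number 153 of 95882 regions (0.160%), of which 138 overlap a gene, 15 lie only within 5 kb, and 13 are counted for more than 1 listed gene. A region was found for 33 of the 36 genes and none for Ube3a, a ubiquitin ligase, Ndn, which encodes necdin, and Phlda2, which limits placental growth.

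The animals were 7 mice whose model is given as GermFree (raised without microbes) and 5 given as ConvR (conventionalised), and each gave duodenum, jejunum, ileum and colon, in all 48 libraries with 12 per section. The labels give the tissue as intestine and name no strain, age, sex or sorted cell type, so each library is read as DNA of mixed cells, in which a change in the mix of cells and a change within a cell cannot be told apart. Captured DNA holds no expression, so the labelled sections could not be checked by their markers. Library totals ran from 1007560 to 3033782 counts (median 2122529), and the members took between 1581 and 4701 of them (median 3201), a share of 0.144% to 0.161%. The median count of a member region per library ran from 7 to 76, with a median of 16 over regions. Libraries of ConvR mice 1 and 3 had stood apart in earlier results of these data, and a named log2 difference that moved by over 1.5 times without both is given both ways.

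At an imprinted locus the copy inherited from the mother and that from the father carry different DNA methylation. It is laid down in the germ line and kept in the body. Only the copy from a given parent is expressed, at some listed genes only in certain tissues. Expression of the maternal copy is known for brain at Trappc9, Commd1 and Blcap, for neurons at Ube3a, and for some tissues at Copg2 and Gnas. That of the paternal copy is known for heart at Ddc. Which copy is expressed in intestine was not measured. A short CpG-rich stretch that is methylated on a single parental copy, the germline mark, controls several neighbouring genes, often through a long non-coding RNA. Many of these genes regulate growth of the fetus and placenta and are expressed less after birth, while the marks persist. The assay reads methylated fragments of both parental copies together and does not separate them.

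To show what the captured regions cover, the transcription start windows of the listed genes were taken from RefSeq (GRCm38.p6, the coordinates of mm10), 250 bases before to 50 bases after each start. A window was found for 26 of the 36 genes, in all 41 windows, and a captured region touched 2 of them (4.88%), at Peg3 and Mirg, against 8.57% of all 32851 windows. CpG-dense windows (GC of at least 50% and an observed over expected CpG ratio of at least 0.6) were seldom touched anywhere, 1.34% of 10937 against 12.2% of the other 21914. Of the member windows 20 were CpG-dense, and none of those was touched. Of the 19 windows of 10 genes listed with a maternal germline mark at their start, 1 was touched, the window of Peg3. The mark was assigned by gene, and whether each of these windows lies in a mark was not checked. Of the 39 member windows that were not touched, 8 had a member region within 1 kb, at a gap of 150 bp for Nnat, 268 bp for Meg3, 348 bp for Igf2r, 350 bp for Gnas, 397 bp for Plagl1, 599 bp for Mkrn3, 611 bp for Commd1 and 806 bp for Igf2. The levels below therefore describe mostly gene bodies and flanks. The 250 bases before the start are printed 5′ to 3′ on the strand of the gene with each CpG in capitals, for the touched starts of Peg3 (chr7:6730420-6730669, minus strand, 8 CpG) and Mirg (chr12:109734731-109734980, plus strand, 10 CpG) and for the untouched but near starts of Nnat (chr2:157559828-157560077, plus strand, 12 CpG) and Plagl1 (chr10:13090582-13090831, plus strand, 19 CpG).
Peg3: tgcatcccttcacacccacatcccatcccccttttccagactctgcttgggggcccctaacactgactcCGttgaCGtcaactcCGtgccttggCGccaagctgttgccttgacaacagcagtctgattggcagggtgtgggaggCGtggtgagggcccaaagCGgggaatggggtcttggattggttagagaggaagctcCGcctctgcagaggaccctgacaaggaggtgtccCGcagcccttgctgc
Mirg: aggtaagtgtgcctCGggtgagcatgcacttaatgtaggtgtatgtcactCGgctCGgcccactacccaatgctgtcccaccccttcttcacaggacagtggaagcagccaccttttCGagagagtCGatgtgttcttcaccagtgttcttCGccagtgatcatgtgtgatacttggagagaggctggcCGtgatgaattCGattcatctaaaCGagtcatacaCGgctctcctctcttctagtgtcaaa
Nnat: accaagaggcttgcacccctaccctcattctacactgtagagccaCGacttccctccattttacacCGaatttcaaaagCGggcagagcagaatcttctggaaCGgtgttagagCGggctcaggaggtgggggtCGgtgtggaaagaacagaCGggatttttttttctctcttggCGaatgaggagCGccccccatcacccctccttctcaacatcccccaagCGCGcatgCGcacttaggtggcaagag
Plagl1: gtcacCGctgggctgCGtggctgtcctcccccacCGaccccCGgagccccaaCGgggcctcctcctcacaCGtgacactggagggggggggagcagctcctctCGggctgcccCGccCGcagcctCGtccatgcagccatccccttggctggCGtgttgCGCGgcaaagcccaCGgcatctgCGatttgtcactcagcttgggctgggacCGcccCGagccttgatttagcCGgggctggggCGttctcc
The stretch before Plagl1, a zinc finger transcription factor with a maternal germline mark, holds the most CpG of these 4, and that before Peg3 the fewest. The letters TGCCGC, searched on both strands as the core of the motif read by the zinc finger protein ZFP57 at imprinted marks, were found in 11 of the 41 member windows (26.8%). They were in 11.6% of all windows, in 25.3% of the CpG-dense ones and in 4.79% of the others. Among the member windows they were in 8 of the 20 CpG-dense ones and in 3 of the other 21. Both shares lay above those of all windows of the same kind, which was not tested. Nearly identical windows of Mest, from 30737800 and 30737803, add a hit to each kind. The letters were in 6 of the 19 windows listed with a maternal germline mark (31.6%) and in 5 of the other 22 (22.7%).

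The level of a gene is the summed CPM of its regions (read counts scaled to library size with edgeR's TMM factors) per kb of region, averaged over the 4 sections of a mouse. Member regions had a median of 5.92 CPM per kb, against 6.22 over all regions, and 80% of them lay between 4.73 and 8.61, against 4.81 and 8.52. Their width ran from 419 to 8889 bp with a median of 1300 bp, against 1208 bp over all regions. The list is uneven: Trappc9, a subunit of a trafficking complex, holds 46 of the 153 regions (30.1%) and the potassium channel gene Kcnq1 holds 17, while 9 genes hold a single region. Captured reads depend on how many CpG a fragment holds as well as on their methylation, so an order of levels between genes is no order of methylation. The level per kb also fell with the width of the region: its median was 8.09 in the 62 members under 1 kb, 5.32 in the 75 from 1 to 4 kb and 4.70 in the 16 wider ones, against 8.04, 5.36 and 4.81 over all regions of those widths.

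**Figure D1:**
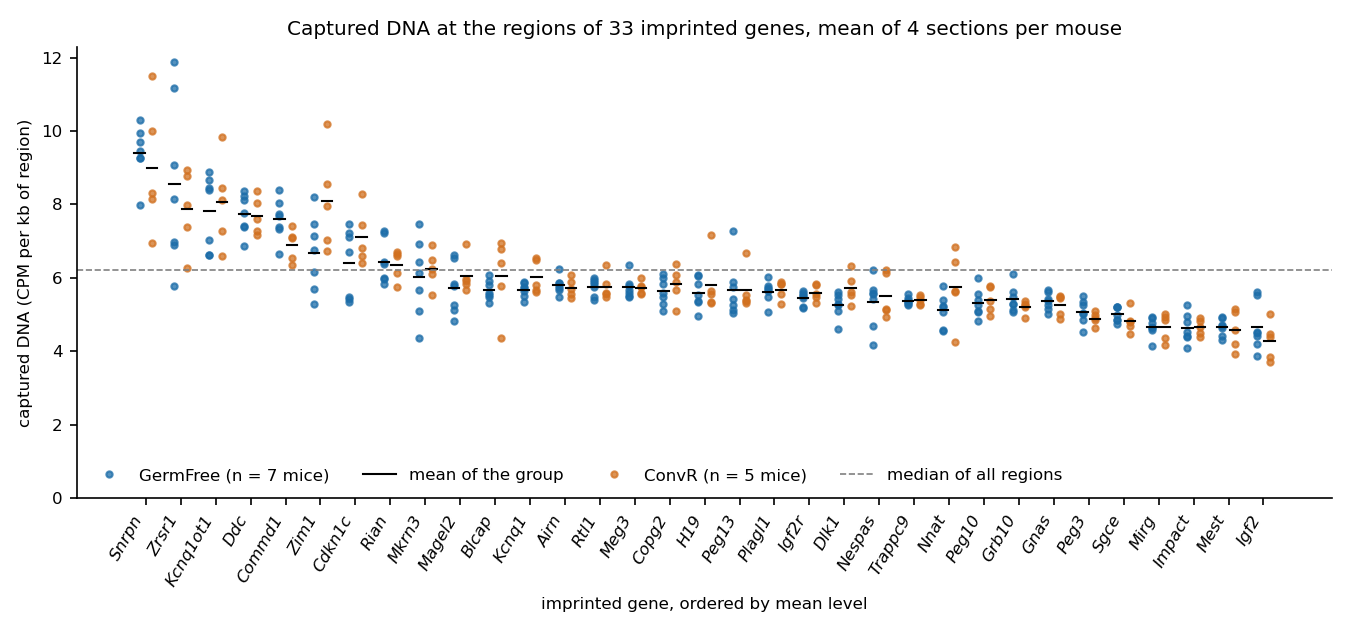
Captured DNA of the 33 imprinted genes with a region, in CPM per kb of region, ordered by the mean over 12 mice. Each point is a mouse (mean of its 4 sections), coloured by mouse model, and the dashed line is the median of all regions. This median counts each region once, while the gene levels weigh regions by width. Snrpn stands at the top with 9.23 and Igf2 at the bottom with 4.50, and GermFree and ConvR points overlap at every gene.

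The highest level was at Snrpn, which encodes small nuclear ribonucleoprotein N, with 9.23 ± 1.22 CPM per kb (SD, n = 12 mice). It was followed by Zrsr1, a splicing factor retrogene inside Commd1, with 8.27 ± 1.85, by Kcnq1ot1, the antisense RNA inside Kcnq1, with 7.91 ± 1.06, and by Ddc, which encodes dopa decarboxylase, with 7.72 ± 0.505. The median widths of their regions were 495.5, 453, 629.5 and 584 bp. The lowest were Igf2, a fetal growth factor, with 4.50 ± 0.611, and Mest, a hydrolase-fold protein, with 4.63 ± 0.367, whose regions had median widths of 2013 and 5563 bp. The means of 25 of the 33 genes lay below the median of all regions and 8 lay above it. A gene's level weighs its regions by width, and wider regions had fewer CPM per kb over all regions too. That median counts each region once, so the genes below and above it do not show low capture. In this order 31 of 32 neighbouring genes differed by no more than the larger of their SDs, the exception being Gnas, the stimulatory G protein subunit (5.32 ± 0.252), above Peg3 (4.995 ± 0.282). Neighbours in a sorted list lie close by construction, so this count is a description and no test of the order. The SD between mice was from 2.01% of the mean, at Trappc9 with its many regions, to 22.3% at Zrsr1 with its single region.

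Within loci the levels, set side by side without a test, lay apart at some and together at others. Region widths differed as well. Median widths were 954 bp at H19 and 2013 at Igf2, 495.5 at Snrpn and 3249 at Magel2, and 737.5 at Rian and 5017 at Mirg. In each of these pairs the gene with narrower regions had the higher level. Dlk1 went the other way, with 589 bp and a lower level than Rian, Meg3 and Rtl1. Whether width accounts for the gaps was not tested. At the H19-Igf2 locus the non-coding RNA H19 had 5.69 ± 0.570 and the growth factor gene Igf2 had 4.50 ± 0.611. Igf2r, the receptor that clears this growth factor, had 5.51 ± 0.205, and Airn, the RNA that silences it on the paternal copy, had 5.77 ± 0.235, close to each other and with 1 region in common. At the Kcnq1 locus the antisense RNA stood above its host gene Kcnq1 (5.82 ± 0.351) and above the cell cycle inhibitor gene Cdkn1c (6.69 ± 0.915). The 2 regions of the antisense RNA, of 748 and 511 bp, are also among the 17 counted for Kcnq1, so a part is set against the whole. At the Dlk1-Meg3 locus the RNA that hosts small nucleolar RNAs, Rian, had 6.41 ± 0.505. The non-coding RNA Meg3 had 5.74 ± 0.246, Rtl1, which encodes a retrotransposon-derived protein, 5.76 ± 0.274, the Notch ligand relative Dlk1 5.45 ± 0.425, and the miRNA host Mirg the least, 4.66 ± 0.298. Rtl1 shares regions with Meg3 and with Rian. In the Snrpn domain the makorin gene Mkrn3 had 6.11 ± 0.852 and the MAGE family gene Magel2 5.86 ± 0.616, both below Snrpn.

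Of the remaining pairs, Zim1, a zinc finger gene, stood at 7.26 ± 1.34 and its neighbour Peg3, also a zinc finger gene, at 4.995 ± 0.282. Median region widths were 767 bp at Zim1 and 4633.5 at Peg3, 584 at Ddc and 1608 at Grb10, and 2499 at Copg2 and 5563 at Mest. The gene with narrower regions had the higher level in each of these pairs. It was the other way at Gnas (1340 bp) and Nespas (1928), and at Trappc9 (1331.5) and Peg13 (1389.5). Commd1, a regulator of copper and NF-kappa-B, had 7.31 ± 0.615. The insulin receptor adaptor gene Grb10 had 5.33 ± 0.305, below its neighbour Ddc. Peg10, a retrotransposon-derived gene, had 5.35 ± 0.356 and Sgce, which encodes epsilon-sarcoglycan, 4.93 ± 0.255. Nnat, which encodes neuronatin and lies inside Blcap, had 5.38 ± 0.759 and Blcap 5.83 ± 0.690. Copg2, a coatomer subunit gene, had 5.71 ± 0.412, above its neighbour Mest. The antisense RNA Nespas had 5.41 ± 0.629, the non-coding RNA Peg13 inside Trappc9 5.67 ± 0.667, Trappc9 itself 5.38 ± 0.108, Plagl1 5.65 ± 0.267, and Impact, a regulator of the GCN2 kinase, 4.64 ± 0.324. The region of Zrsr1 is also counted for Commd1, that of Nnat for Blcap and that of Mest for Copg2. The region of Nespas is counted for Gnas too and those of Peg13 for Trappc9, so these levels are not independent.

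Whether the microbial state of the mouse goes with captured DNA at imprinted genes was asked first with the 4 sections summed per mouse. No member region passed in edgeR's quasi-likelihood test (adjusted p under 0.05 over all regions), against 0.475% of all 95882 regions, and DESeq2 also called 0. At an unadjusted p under 0.05 were 11 of 153 (7.19%), 4 higher and 7 lower in GermFree, close to the 6.63% of all regions. Of the log2 differences 77 were positive and 76 negative, and their median size was 0.08, as over all regions. Over whole genes 0 of 33 passed in edgeR and 0 in DESeq2, against 0.499% of 30232 genes, and 1 of 33 (3.03%) had an unadjusted p under 0.05, against 7.62%. The genes' log2 differences ran from -0.26 at Zim1 to 0.16 at Commd1.

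**Figure D2:**
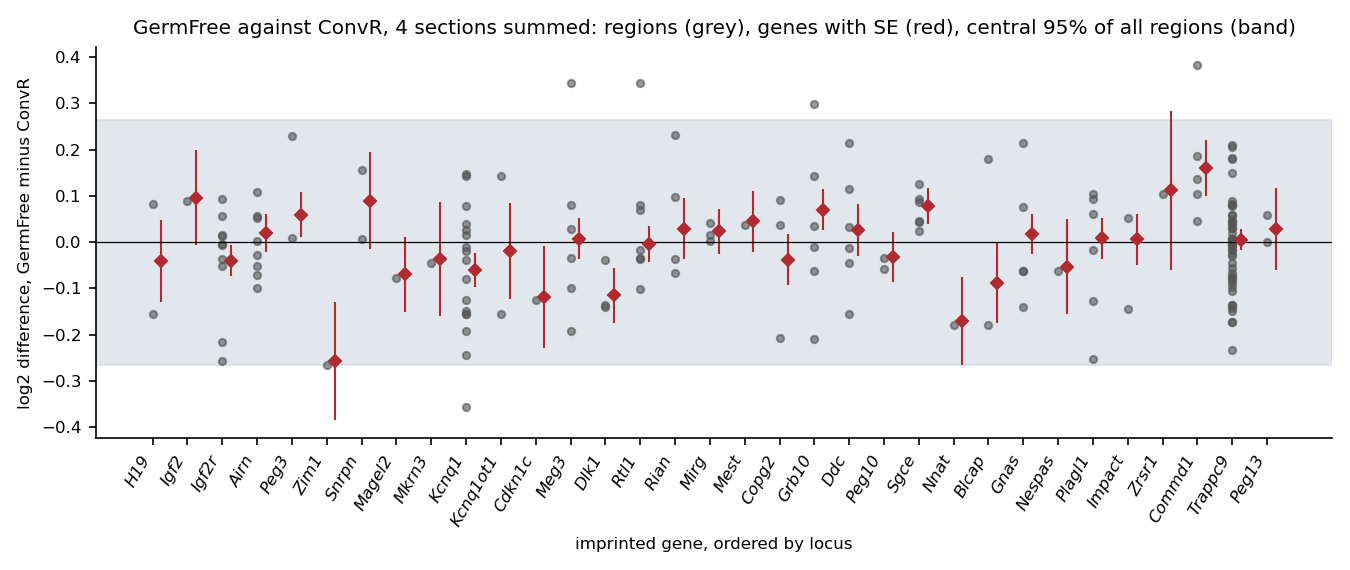
Log2 difference in captured DNA, GermFree minus ConvR with the 4 sections of a mouse summed, for each member region (grey) and for each gene's summed regions with its standard error (red). The band is the central 95% of all regions. Gene differences lie between -0.26 and 0.16, and none passed the test.

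Commd1 had the smallest p among the genes. Its levels in GermFree mice 1 to 7 were 7.33, 8.05, 7.39, 8.40, 7.75, 6.64 and 7.68 CPM per kb, and in ConvR mice 1 to 5 they were 7.11, 6.35, 7.08, 6.54 and 7.40. The groups overlapped, and 4 of 7 GermFree mice had more than every ConvR mouse. Their means of 7.61 ± 0.566 (SD, n = 7) and 6.90 ± 0.436 (n = 5) differed by 0.16 on the log2 scale with a standard error of 0.06, at an edgeR adjusted p of 0.536. Zim1 (-0.26, adjusted p in edgeR 0.663; -0.14 without ConvR mice 1 and 3), Sgce (0.08), Dlk1 (-0.11) and Nnat (-0.17) came next by p.

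Among single regions summed over sections, the smallest p was in Grb10, at chr11:11953469-11954973 inside the gene. GermFree mice had 8.29, 9.04 and 9.78 CPM as lowest, median and highest value, and ConvR mice 1 to 5 had 8.61, 5.96, 5.79, 8.82 and 8.02. Among GermFree mice 6 of 7 lay above all ConvR mice, and the log2 difference was 0.30 (SE 0.11, edgeR adjusted p 0.549). A Commd1 region at chr11:22897953-22898461, outside the gene but within 5 kb, had 4.61 ± 0.454 CPM in GermFree and 3.52 ± 0.487 in ConvR mice (log2 0.38), and 5 of 7 GermFree mice had more than every ConvR mouse. An Igf2r region at chr17:12697317-12698961 went the other way, 8.21 ± 0.887 against 9.85 ± 0.838 (log2 -0.26), and 6 of 7 GermFree mice had less than every ConvR mouse. Copg2 at chr6:30803510-30806008 (17.4 ± 1.99 against 20.2 ± 2.64) and Trappc9 at chr15:73036847-73041177 (18.8 ± 1.54 against 21.1 ± 1.77) were also lower in GermFree mice without passing.

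Taken section by section, no member region passed in edgeR or in DESeq2. In duodenum 0 of 128 tested members passed, against 0.463% of all regions, and 7 (5.47%) had an unadjusted p under 0.05, against 6.99%. In jejunum it was 0 of 128 against 0.343%, and 11 (8.59%) against 5.36%. In ileum it was 0 of 139 against 0.365%, and 7 (5.04%) against 5.12%. In colon it was 0 of 127 against 0.542%, and 5 (3.94%) against 7.44%. The smallest edgeR adjusted p among members was 0.433 in duodenum, 0.119 in jejunum, 0.173 in ileum and 0.389 in colon.

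The member nearest to passing was an Igf2r region in jejunum, chr17:12709296-12710377 inside the gene. GermFree mice 1 to 7 had 9.10, 3.66, 9.26, 10.6, 10.2, 11.0 and 8.21 CPM, and ConvR mice 1 to 5 had 3.82, 5.06, 4.19, 7.39 and 4.78. GermFree mouse 2 lay below all ConvR mice and the other 6 above all of them. The log2 difference was 0.82 (SE 0.23, edgeR adjusted p 0.119), and in the other sections it was -0.35 in duodenum, -0.11 in ileum and 0.02 in colon. With each of the 12 mice left out in turn it ran from 0.76 to 0.99, and the edgeR adjusted p from 0.0228 (without GermFree mouse 2) to 0.387. It passed in 2 of the 12, the other being without ConvR mouse 4 (0.0452), and without ConvR mice 1 and 3 the difference was 0.68 with an edgeR adjusted p of 0.823. Copg2 at chr6:30803510-30806008 was second in jejunum, with 15.4 ± 4.22 CPM in GermFree and 21.1 ± 3.01 in ConvR mice (log2 -0.46, adjusted p in edgeR 0.30).

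In ileum the smallest p was at a Kcnq1 region, chr7:143368032-143368815 inside the gene. GermFree mice ranged from 4.14 to 6.17 CPM (median 5.33), and ConvR mice 1 to 5 had 26.3, 4.72, 18.1, 7.95 and 6.0. ConvR mice 1 and 3 stood far above the rest and the other ConvR mice near the GermFree range. The log2 difference was -0.94 (SE 0.27, edgeR adjusted p 0.173), and without ConvR mice 1 and 3 it was -0.20. The same mice were high at this region in duodenum, with 21.1 CPM each, and in jejunum, with 10.8 and 8.99, but not in colon, with 4.52 and 5.16. With each mouse left out in turn the ileum difference ran from -1.21 to -0.64 and the edgeR adjusted p from 0.00715 to 0.930, passing in 2 of 12, without ConvR mouse 2 (0.00715) and without ConvR mouse 5 (0.0489). With the code of the sample titles as a block it was -1.11 and passed (edgeR adjusted p 0.0339). The Peg3 region that covers the printed start, chr7:6729038-6730920, had 10.7 ± 2.88 CPM in GermFree and 6.47 ± 3.70 in ConvR ileum. GermFree values ran from 8.02 to 15.97 and ConvR mice 1 to 5 had 8.09, 11.8, 1.88, 5.44 and 5.14, so that 2 GermFree mice lay above all ConvR mice. The log2 difference was 0.61 (edgeR adjusted p 0.793), and in duodenum, jejunum and colon it was 0.10, 0.08 and 0.13. With each mouse left out in turn it ran from 0.42 (without ConvR mouse 3) to 1.08 and passed in 1 of 12, without ConvR mouse 2 (edgeR adjusted p 0.0346), and without ConvR mice 1 and 3 it was 0.43.

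**Figure D3:**
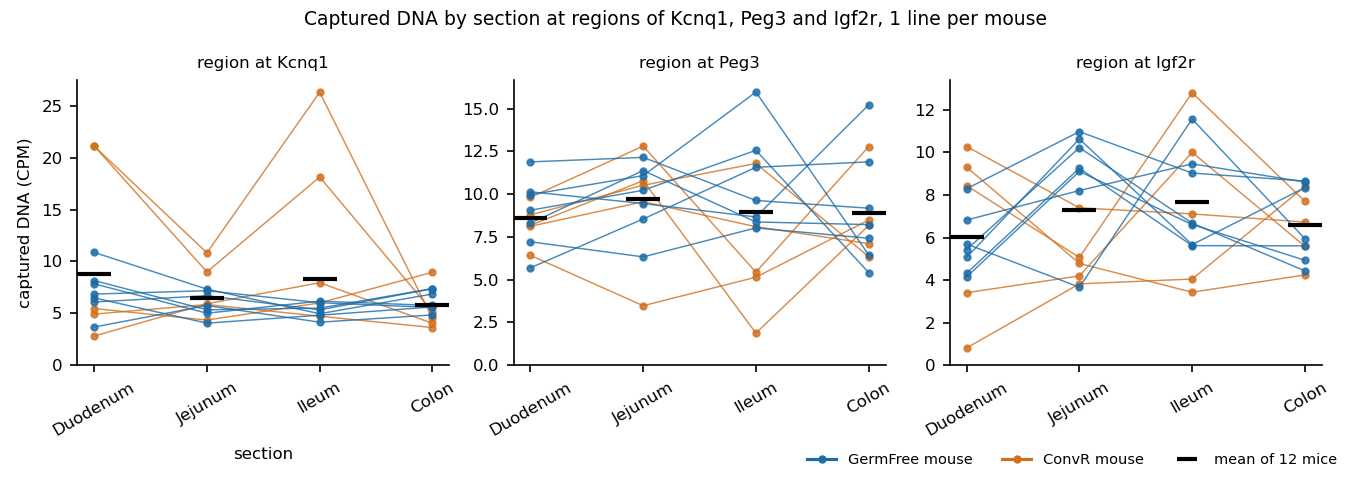
CPM of the Kcnq1, Peg3 and Igf2r regions in duodenum, jejunum, ileum and colon, 1 line per mouse, coloured by mouse model. ConvR mice 1 and 3 rise to 26.3 and 18.1 at Kcnq1 in ileum, and at Igf2r in jejunum 6 of 7 GermFree mice lie above the ConvR mice.

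In duodenum a Grb10 region at chr11:11984352-11984778 had 3.29 ± 1.27 CPM in GermFree and 5.70 ± 1.29 in ConvR mice (log2 -0.81, edgeR adjusted p 0.433), and 5 of 7 GermFree mice had less than every ConvR mouse. The region that spans Mest and Copg2 at chr6:30742749-30748311 was the other way, 27.4 ± 2.03 against 22.2 ± 3.09 (log2 0.29), with 5 of 7 GermFree mice above. In colon a second Kcnq1 region, chr7:143416317-143417367, had 4.44 ± 1.58 against 7.26 ± 0.735 (log2 -0.72, edgeR adjusted p 0.389). A region in Meg3 within 5 kb of Rtl1, chr12:109558195-109560941, had 15.2 ± 2.39 against 11.8 ± 0.670 (log2 0.37), and 6 of 7 GermFree mice had more than every ConvR mouse. An Rtl1 region at chr12:109583205-109584134 was higher in GermFree colon (6.53 ± 1.94 against 3.97 ± 1.31) and lower in GermFree ileum (3.69 ± 1.31 against 5.98 ± 1.27). Whether the model difference varied by section was tested itself: 0 of 153 members passed in edgeR and 0 in DESeq2, against 0% of all regions, and 8 (5.23%) had an unadjusted p under 0.05, against 4.95%. The smallest edgeR adjusted p was 0.986, at a Trappc9 region.

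Sections were compared over all 48 libraries. Colon stood below the other sections at 2 member regions, in Rtl1 and in Magel2. That was 2 of 153 in edgeR's test of colon against the mean of duodenum, jejunum and ileum, against 2.39% of all regions (0.607% lower and 1.79% higher), and DESeq2 called 1. At an unadjusted p under 0.05 were 25 members (16.3%), against 15% of all regions, a share near the background. With the mouse as a block, which uses that each mouse gave all 4 sections, 3 of 153 members passed, 2 lower and 1 higher, the added region lying in Copg2, against 3.78% of all regions.

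The Rtl1 region is chr12:109590611-109595530 inside the gene. In colon its lowest, median and highest values were 16.8, 22.4 and 41.7 CPM. The same 3 values were 19.5, 28.7 and 47.0 in duodenum, 24.5, 28.1 and 32.7 in jejunum, and 24.7, 30.8 and 37.4 in ileum. The ranges overlapped, and colon was below the mean of the same mouse's other sections in 10 of 12 mice. ConvR mouse 3 held the highest value in both colon and duodenum. Colon had 23.4 ± 6.38 CPM (SD of single libraries, n = 12). The mean of each mouse's other sections was 29.6 ± 2.68, an SD of averages and so not comparable with that of colon. The log2 difference was -0.31 (SE 0.08, edgeR adjusted p 0.0185), and with the mouse block it was -0.32 with 0.00207. The call was lost without ConvR mouse 2 (-0.26, edgeR adjusted p 0.0835), 4 (-0.26, 0.103) or 5 (-0.29, 0.0860) or GermFree mouse 4 (-0.29, 0.0605) or 6 (-0.28, 0.0563), while the difference was -0.45 without ConvR mouse 3 and -0.50 without ConvR mice 1 and 3, both past the threshold.

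This region holds 6 miRNA hairpins, most of them on the strand opposite to Rtl1, where transcripts of the maternal copy are known to target Rtl1 itself. Their 11 mature sequences from RefSeq are printed because they are what the called region encodes besides Rtl1, with the seed (bases 2 to 8) in capitals.
miR-433-5p: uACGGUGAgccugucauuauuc
miR-433-3p: aUCAUGAUgggcuccucggugu
miR-127-5p: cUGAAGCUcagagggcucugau
miR-127-3p: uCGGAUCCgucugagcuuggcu
miR-434-5p: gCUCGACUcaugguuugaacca
miR-434-3p: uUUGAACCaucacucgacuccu
miR-432: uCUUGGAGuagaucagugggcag
miR-3071-3p: aUCAUCAAaacaaauggagucc
miR-136-5p: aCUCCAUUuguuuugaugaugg
miR-3071-5p: aCUCAUUUgagacgaugaugga
miR-136-3p: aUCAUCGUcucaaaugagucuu
No seed was shared among these sequences, nor among the 34 mature miRNAs of 18 hairpins in 4 member regions, the other 3 regions lying in Mirg. Captured DNA is read here over the whole region, so it does not resolve methylation at the hairpins and gives no level of the miRNAs.

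The Magel2 region is chr7:62378042-62381290, over the gene and 1063 bp from its start. In colon its lowest, median and highest values were 9.60, 15.7 and 22.8 CPM, and the same 3 values were 16.2, 21.5 and 27.3 in duodenum. They were 14.4, 18.9 and 24.0 in jejunum and 15.4, 19.3 and 27.0 in ileum. Colon lay below the mean of the same mouse's other sections in 11 of 12 mice. Colon had 15.8 ± 3.77 CPM and the mean of each mouse's other sections was 20.1 ± 1.74, again an SD of averages. Colon and the others differ by -0.31 on the log2 scale (SE 0.09, edgeR adjusted p 0.0269), and by -0.32 with 0.0110 with the mouse block. The adjusted p was 0.0514 in DESeq2. The call was lost without ConvR mouse 1 (-0.29), 4 (-0.29) or 5 (-0.30) or GermFree mouse 2 (-0.27) or 4 (-0.30).

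**Figure D4:**
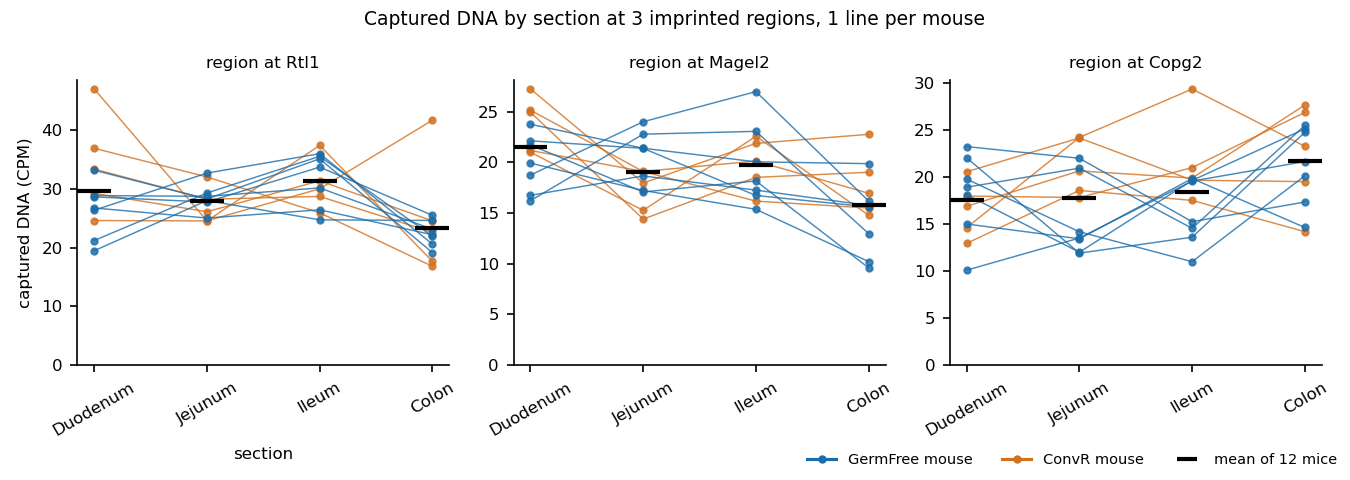
CPM of the Rtl1, Magel2 and Copg2 regions in duodenum, jejunum, ileum and colon, 1 line per mouse, coloured by mouse model. Colon means are 23.4 at Rtl1, 15.8 at Magel2 and 21.7 at Copg2, and single mice cross the general direction at each region.

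Copg2 at chr6:30803510-30806008 had 17.5 ± 3.83 CPM in duodenum, 17.8 ± 4.64 in jejunum, 18.4 ± 4.66 in ileum and 21.7 ± 4.60 in colon. Colon was above the mean of the same mouse's other sections in 8 of 12 mice. The log2 difference of 0.29 had an edgeR adjusted p of 0.0544, and 0.0139 with the mouse block. It also passed without ConvR mouse 3 (0.0118), GermFree mouse 2 (0.0350) or GermFree mouse 3 (0.0212) in edgeR. A Trappc9 region at chr15:72839225-72841473 (log2 0.32, edgeR adjusted p 0.0722) and a Plagl1 region at chr10:13126919-13127774 (log2 -0.45, edgeR adjusted p 0.0849) came next.

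A joint test of any difference between the 4 sections called 0 of 153 members in edgeR and 0 in DESeq2, against 1.16% of all regions, and 21 (13.7%) had an unadjusted p under 0.05, against 12.2%. With the mouse block it called 2, Magel2 (adjusted p in edgeR 0.0191) and Rtl1 (0.00657), against 2.55% of all regions. Over whole genes the joint test called 1 of 33, Magel2 (F = 5.91, edgeR adjusted p 0.0449, 0.0138 with the mouse block), whose single region is the one described, against 2.84% of 30232 genes, and DESeq2 called 0. The call of Magel2 was lost in 9 of 12 fits that left out a mouse, all but those without ConvR mouse 3 or GermFree mouse 3 or 5 (edgeR adjusted p 0.0519 to 0.132 where lost), and without ConvR mice 1 and 3 (0.0848). An unadjusted p under 0.05 was found for 2 of 33 genes (6.06%), against 15.1%, the second being Cdkn1c (edgeR adjusted p 0.329). Cdkn1c had 6.68 ± 1.90 CPM per kb in duodenum, 6.73 ± 1.83 in jejunum, 7.66 ± 1.47 in ileum and 5.71 ± 1.42 in colon, where GermFree mice had 4.98 ± 1.23 and ConvR mice 6.72 ± 1.02.

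Between the parts of the small intestine no member passed. Ileum against duodenum gave 0 of 153 in edgeR and 0 in DESeq2, against 0.00209% of all regions, with 6 (3.92%) at an unadjusted p under 0.05, against 4.75%. Jejunum against duodenum gave 0 in edgeR and 0 in DESeq2, against 0%, with 8 (5.23%) against 5.41%. The smallest p was at an Igf2r region in the former, chr17:12693497-12694072, with 5.17 ± 1.36 CPM in duodenum and 3.48 ± 1.29 in ileum (log2 -0.60, edgeR adjusted p 0.997). In the latter it was at the region shared by Trappc9 and Peg13, chr15:72808915-72810978, with 11.0 ± 2.71 in duodenum and 8.79 ± 1.83 in jejunum (log2 -0.37, edgeR adjusted p 0.896).

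A further 43 imprinted genes outside the list, of which 33 had 208 regions, were set beside the members. None of their regions passed between GermFree and ConvR mice, with the sections summed or apart, in edgeR or in DESeq2, and 17 (8.17%) had an unadjusted p under 0.05 in the sums, against 6.63% of all regions. Colon against the other sections called 10 of 208, 8 higher and 2 lower, against 2.39% of all regions, with 44 (21.2%) at an unadjusted p under 0.05, against 15%, and DESeq2 called 5. Snhg14, the long RNA downstream of Snrpn that hosts small nucleolar RNAs, gave 7 of the higher regions, of its 27 tested, and 26 of the 27 differences were positive. At chr7:59767143-59770432 it had 62.6, 62.1 and 57.1 CPM in duodenum, jejunum and ileum and 76.0 in colon (log2 0.32, edgeR adjusted p 0.00357). Its small nucleolar RNA genes are repeated copies, so the placement of its reads is uncertain. The other calls were Slc22a3, a transporter gene, higher (log2 0.55), and Asb4 (-0.68) and Slc38a4 (-0.36) lower in colon.

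Regions at marker genes of epithelium, immune cells, muscle and enteric nerve, 74 in all, were read the same way. In edgeR and DESeq2 0 of them passed in any comparison. At an unadjusted p under 0.05 in edgeR were 5 of 74 in colon against the other sections, against 15% of all regions. In the summed GermFree against ConvR test it was 3 of 74, against 6.63% of all regions. The summed level of the 22 muscle regions (8 genes) ran from 199 to 244 CPM in colon. It ran from 223 to 272 in duodenum, 217 to 252 in jejunum and 219 to 258 in ileum. The median over mice was lowest in colon for every marker list. For muscle it was 224 CPM in colon, against 242 in duodenum, 237 in jejunum and 240 in ileum. In the same order it was 132, against 136, 134 and 138, for epithelium. For immune cells it was 71.2, against 73.9, 73.6 and 74.1, and for enteric nerve 242, against 248, 245 and 244. Whether these levels have a part in the results at Rtl1 and Magel2 was not tested.

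Variation between mice was measured for each region as the coefficient of variation (CV) that edgeR's dispersion leaves after counting error within GermFree and ConvR mice, on the sums over sections, and ranked among the 1000 regions nearest in mean abundance. The median percentile of the members was 53.1, against 50.1 over all regions. In single sections it was 25.9 in duodenum (all regions 49.6), 27.4 in jejunum (27.95), 50.7 in ileum (50.1) and 27.05 in colon (49.4), where ties at the lowest value move the median. Above the 90th percentile were 16 of 153 (10.5%), against 9.99% of all regions. The lowest value the estimate can return was given to 65 members (42.5%) and to 43.9% of all regions, so the lower end cannot be ordered, and none fell below the 10th percentile. The median CV was 3.70% for the members and 3.405% over all regions.

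**Figure D5:**
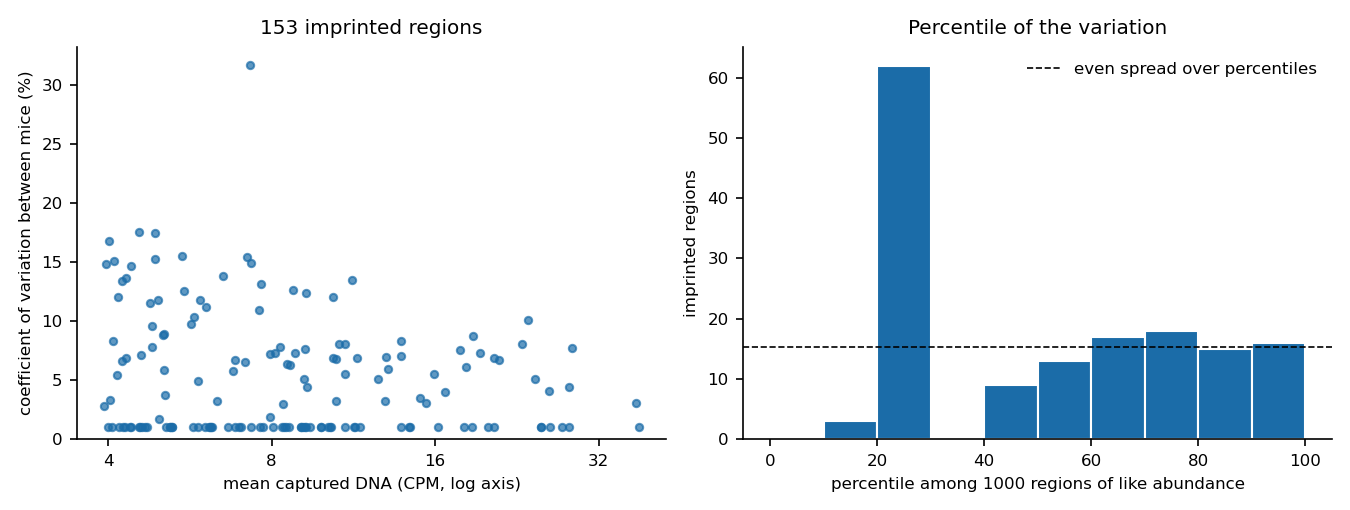
Variation between mice of the 153 member regions. One panel sets the CV beyond counting error against mean CPM for the members, and the other counts members by their percentile among 1000 regions of like abundance, with the dashed line at an even spread. The Kcnq1 region at a CV of 31.7% stands above the other members.

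The highest percentile was that of the Kcnq1 region chr7:143368032-143368815 described in ileum, with a CV of 31.7% and the 99.7th percentile, where ConvR mice 1 and 3 were high. A second Kcnq1 region, starting at 143182739, followed with 13.5% and the 96.7th percentile. The Igf2r region described in jejunum had 15.4% and the 96.6th, a Rian region starting at 109637649 had 17.5% and the 96.4th, and a Commd1 region starting at 22912061 had 17.4% and the 95.7th. The lowest percentiles, from 16.7 at a Trappc9 region starting at 72747451 to 20.1 at regions of Trappc9, Mirg and Gnas, all belonged to regions at the lowest value the estimate returns and are not ordered by it. By gene the median percentile ran from 90.3 over the 3 regions of Copg2 and 88.7 over the 2 of Peg13 to 21.9 over the 2 of H19 and 21.9 at Cdkn1c. The median CV of H19 and Cdkn1c was at the lowest value, as at Ddc, Dlk1, Commd1, Mirg and Gnas, so these genes are not ordered. Gene medians rest on few regions, and 17 of Kcnq1 spanned 20.7 to 99.7.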

How the data were processed

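Methylated DNA had been captured with a methyl-CpG-binding domain from fragments of about 250 bp and read as 100-bp single ends, per the labels' protocols. Per the submitters' processing notes, Trim Galore 0.3.7, cutadapt 1.4.2, MACS2 and featureCounts were used with the build mm10. The aligner, the treatment of duplicate and multiply placed reads, and the libraries behind the peaks are details not given in the sources used here. The authors deposited whole-number read counts of 95882 regions in 48 libraries and a peak list with 1 score per region, the authors' own value, which was not used in a test. Every region is named after GermFree, so DNA captured more in ConvR mice may be under-represented.

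Regions were joined to genes by the gene table of RefSeq GRCm38.p6 (35 genes matched by symbol, 1 by synonym), which gives neither strand nor exons, so exon and intron are not stated. The members, lists and tests were chosen with earlier results of these data known. Counts were tested in R 4.3.3 with edgeR 4.0.16 (TMM, default count filter, quasi-likelihood F-tests, Benjamini-Hochberg over all tested regions or genes, threshold 0.05); DESeq2 1.42.0 was the second tool, and data.table (version 1.17.8), Python 3.11.15, NumPy 2.4.6, pandas 2.3.3 and Matplotlib 3.10.9 served tables and figures. The steps were tested on simulated counts. Between mouse models the mouse was the replicate (counts summed over its 4 sections, or 1 library per section); sections were compared over 48 libraries in 8 groups. Values are TMM-scaled CPM as mean ± SD over mice, and fitted log2 differences, with a prior count that draws low regions towards 0, can be smaller than the ratio of the means. In each comparison the regions past the threshold were named, or the 5 with the smallest p where fewer than 5 passed; for the spread, the 5 highest and 5 lowest. Of 124 pairs of libraries of a group 0 were identical and 0 agreed within sampling noise. Their chi-square per degree of freedom ran from 1.02 to 1.55 (median 1.09), where sampling noise alone gives about 1. The libraries of 1 mouse deviated together only weakly (median correlation 0.03 over 72 pairs), but they come from the same animal, so the mouse was used as a block in an alternative. Other alternatives were the scaling, the count filter, regions that overlap a gene only, each mouse left out, ConvR mice 1 and 3 left out, and blocks by the number of the mouse or by the title code of its sample.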

Additional observations from a re-analysis of the deposited data

Results flagged for a closer look

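The levels of each gene over the 7 GermFree and over the 5 ConvR mice were searched for a mouse whose gap to its nearest neighbour takes an unusually large part of the range of its group, by Dixon's criterion. This picked 5 values in 66 groups (7.58%, where chance gives about 5%), from 3 mice. ConvR mouse 3 stood above its group at Magel2, with 6.92 CPM per kb against 5.96 in the next mouse, at H19, with 7.17 against 5.65, and at Peg13, with 6.67 against 5.53. GermFree mouse 2 stood above its group at Meg3, with 6.35 against 5.83, and GermFree mouse 1 at Peg13, with 7.28 against 5.87. The criterion takes no account of counting error. Both H19 regions, with median counts of 10 and 12 per library, had the lowest CV beyond counting error that the estimate returns. The median percentile of the spread was 84.9 at Magel2, 88.7 at Peg13 and 72.7 at Meg3. ConvR mouse 3 is also the mouse with the highest values of the Rtl1 region in colon and duodenum.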

How the results depend on the processing

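Of 60 values of named regions and genes, 45 are log2 differences, and none of these changed direction in 837 alternatives, while the other 15 are F values with no sign. Over 1096 alternatives to all 60, 21 lost and 22 gained a call. GermFree against ConvR, the count of members that passed stayed 0 in the sums, duodenum and colon under all alternatives run, and under the replicate block by mouse number in every section. It ranged from 0 to 1 in jejunum and 0 to 2 in ileum with a mouse left out, and was 1 in ileum with the title code as a block. For any difference between sections the main count of 0 ranged from 0 to 2 with a mouse left out, and was 2 with library totals in place of TMM, 1 without ConvR mice 1 and 3 and 2 with the replicate block by mouse. For colon against the others the count of 2 ranged from 0 to 6 with a mouse left out (6 without ConvR mouse 3, 0 without ConvR mouse 5), and was 1 with DESeq2, 4 without ConvR mice 1 and 3 and 3 with the replicate block by mouse. Genes called over sections were 0 with DESeq2, 0 without ConvR mice 1 and 3, and 0 to 1 with a mouse left out. The median percentile of the spread was 25.9 in duodenum, 27.4 in jejunum and 27.05 in colon alone (all regions 49.6, 27.95 and 49.4), where 53.9%, 53.1% and 51.2% of members and 48.02%, 50.9% and 48.2% of all regions took the lowest value, and 50.5 to 58.4 with a mouse left out.

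Over all regions, DESeq2 called 671 for sections (edgeR 1114), 1375 for colon (2295), and 221, 147, 164 and 244 between mouse models in duodenum, jejunum, ileum and colon (349, 281, 312 and 402), and 0 for ileum against duodenum (2), as without ConvR mice 1 and 3. The block by mouse called 2444 for sections, 3627 for colon, 15 for jejunum against duodenum and 13 for the interaction (both 0 without it), and the block by mouse number 191 in ileum. Same-numbered GermFree and ConvR libraries deviated together no more than others (median correlation -0.01 over 20 pairs, 0.00 over 120). The title codes are the same for 4 of the 5 numbers that both models share, and what a code stands for is not given. Counts of a few reads per region and library limit what single regions can show.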
